A study of Homo sapiens with 16 samples.

Results

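Levels of the 10 genes RGS2, RGS3, RGS4, RGS5, RGS7, RGS10, RGS12, RGS16, RGS17 and RGS19 were followed in neuroblastoma cells carrying different forms of HIF-2α. They were found by symbol among 63187 genes, and each symbol matched 1 row of the count table. RGS4 was selected on its fitted fold change in cells carrying the cIDR form against wild-type cells, which an earlier fit of the same data had called, and the other 9 were listed with it as relatives. The values of RGS4 in that contrast are therefore a description and carry no test. Low counts kept RGS7 out of the tests, so 9 of the 10 were among the 19530 genes tested.

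Regulators of G protein signalling, the RGS proteins, speed up the hydrolysis of GTP by Gα subunits and so shorten the signal of G protein-coupled receptors. RGS2, RGS3, RGS4, RGS5 and RGS16 belong to the small R4 subfamily, whose members act mainly on Gi/o and Gq, with RGS2 favouring Gq. RGS10 and RGS12 belong to the R12 subfamily, RGS17 and RGS19 to the RZ subfamily, and RGS7 to the R7 subfamily, which pairs with the G protein subunit encoded by GNB5. RGS4, RGS5 and RGS16 proteins are substrates of the arginine N-degron pathway, which destroys them when oxygen is present, so their RNA does not by itself give the protein level. HIF-2α, encoded by EPAS1, is a transcription factor that accumulates at low oxygen and is abundant in cells of the sympathetic lineage, from which neuroblastoma arises.

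All 16 libraries came from SK-N-BE(2), a human neuroblastoma line, grown at 21% oxygen with 10% serum. The 4 groups of 4 libraries were wild-type cells (WT) and cells transfected with full-length HIF-2α (FL) or with the forms labelled NCTAD and cIDR, which the study design writes with a Δ and which are read as lacking those regions. Each replicate number was also a batch, so batches 1 to 4 each held 1 library of every group. The residues removed, the vector, the time after transfection and any empty vector in WT cells are not given in the labels, so transfection as such cannot be told apart from HIF-2α in a comparison with WT. The library names call the line BE2c, the WT group CTRL, the FL group WT and the NCTAD group NTAD, so the region the NCTAD form lacks is not settled by the labels; groups follow the sample titles.

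EPAS1 was at 18.2 ± 6.89 CPM (counts per 1 M counts, M for mega, after TMM scaling; SD, n = 4) in WT, with 621 to 1511 counts, and at 65359 to 282023 counts in each transfected library, as the titles require. EPAS1 means were 2609 ± 906 CPM in FL, 2851 ± 1330 CPM in NCTAD and 4484 ± 1740 CPM in cIDR (SD, n = 4), and its ranges overlapped between the 3 constructs. Paired by batch, however, the cIDR library held the most EPAS1 of the 3 constructs in 4 of 4 batches. Its mean log2 CPM difference was 0.75 ± 0.47 from the FL library and 0.69 ± 0.17 from the NCTAD library (SD, n = 4 batches). Library totals ranged from 38.6 to 56.1 M counts. The 10 neuroblastoma markers were all detected, summing to 6172 to 8086 CPM, although TH, the first enzyme of catecholamine synthesis, had only 0.856 to 10.2 CPM. Of 12 markers of other cell types, KRT5 was at 0 in every library, SOX10, COL1A2, PRRX1, PTPRC and PECAM1 had medians of at most 0.00905 CPM, and the sum was 13.9 to 27.9 CPM, mostly from DCN. Nothing says that same-group libraries came from separate cultures beyond their batch number, so p-values measure the spread between these libraries. In bulk RNA, fewer cells of a kind and less RNA per cell cannot be told apart.

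RGS4, RGS5 and RGS16 were the 3 members with the highest levels, and all lie on chromosome 1. In RefSeq on GRCh38.p14, RGS4 spans 163068871 to 163076802 and RGS5 spans 163142299 to 163321735, 65496 bases further on, while RGS16 spans 182598623 to 182604389. The bases from 240 before to 30 after a RefSeq start site are shown for these genes because HIF proteins bind DNA at a short core, and their levels were compared across forms of HIF-2α. Capitals mark the core ACGTG or GCGTG, which on the other strand reads CACGT or CACGC; overlapping matches were counted as 1 site.
RGS4 first start site, chr1:163068631-163068900, forward strand: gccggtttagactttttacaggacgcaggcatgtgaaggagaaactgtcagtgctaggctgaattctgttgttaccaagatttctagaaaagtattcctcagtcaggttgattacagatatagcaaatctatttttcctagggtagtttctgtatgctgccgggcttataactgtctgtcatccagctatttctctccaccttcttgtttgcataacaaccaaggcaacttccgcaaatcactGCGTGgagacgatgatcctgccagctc
RGS4 second start site, chr1:163069014-163069283, forward strand: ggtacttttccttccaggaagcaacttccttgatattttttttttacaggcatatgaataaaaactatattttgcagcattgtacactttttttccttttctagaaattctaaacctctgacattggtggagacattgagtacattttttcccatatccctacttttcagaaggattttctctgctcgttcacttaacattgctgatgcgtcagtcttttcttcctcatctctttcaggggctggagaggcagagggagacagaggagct
RGS5 first start site, chr1:163321706-163321975, reverse strand: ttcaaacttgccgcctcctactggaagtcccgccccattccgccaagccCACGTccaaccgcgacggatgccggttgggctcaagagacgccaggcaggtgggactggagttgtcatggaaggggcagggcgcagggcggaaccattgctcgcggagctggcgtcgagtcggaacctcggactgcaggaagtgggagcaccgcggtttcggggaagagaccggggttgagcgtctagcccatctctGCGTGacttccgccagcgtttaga
RGS16 start site, chr1:182604360-182604629, reverse strand: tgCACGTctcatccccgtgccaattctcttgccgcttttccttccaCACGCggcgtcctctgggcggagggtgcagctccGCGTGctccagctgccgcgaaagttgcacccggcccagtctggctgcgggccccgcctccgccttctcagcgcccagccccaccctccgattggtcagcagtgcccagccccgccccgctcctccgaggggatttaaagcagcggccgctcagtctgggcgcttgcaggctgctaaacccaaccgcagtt
With the start site as position 1, the RGS4 sequence at the first site held 1 core, beginning at position 4, and the sequence at the second site held none. RGS5 held cores beginning at -191 and 7, in a window it shares with the start of NUF2, a gene read in the opposite direction. RGS16 held 3 cores, at -238, -194 and -160. Over the full windows of 300 bases in the RefSeq table, 13 of 27 windows of the 10 members held a core, and 48.4% of all 35116 windows in the table did. The other 2 RGS4 windows and the other RGS5 window held none. A match is only a run of letters, and which start sites these cells use was not examined.

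Levels of different genes can be compared only per length, as deposited TPM (transcripts per 1 M). RGS5, widely used as a marker of pericytes, was by far the most abundant member, with 1503 to 3723 TPM over 16 libraries and rank 38 by mean among 63187 genes. RGS4, a regulator found widely in neurons, followed with 171 to 790 TPM and rank 349, and RGS16 with 159 to 323 TPM and rank 622. RGS5 exceeded RGS4 in 16 of 16 libraries, with a median TPM ratio of 8.59, and RGS4 exceeded RGS16 in 15 of 16. RGS16 exceeded RGS3 in 16 of 16, with a median ratio of 7.45 and no overlap.

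**Figure D1:**
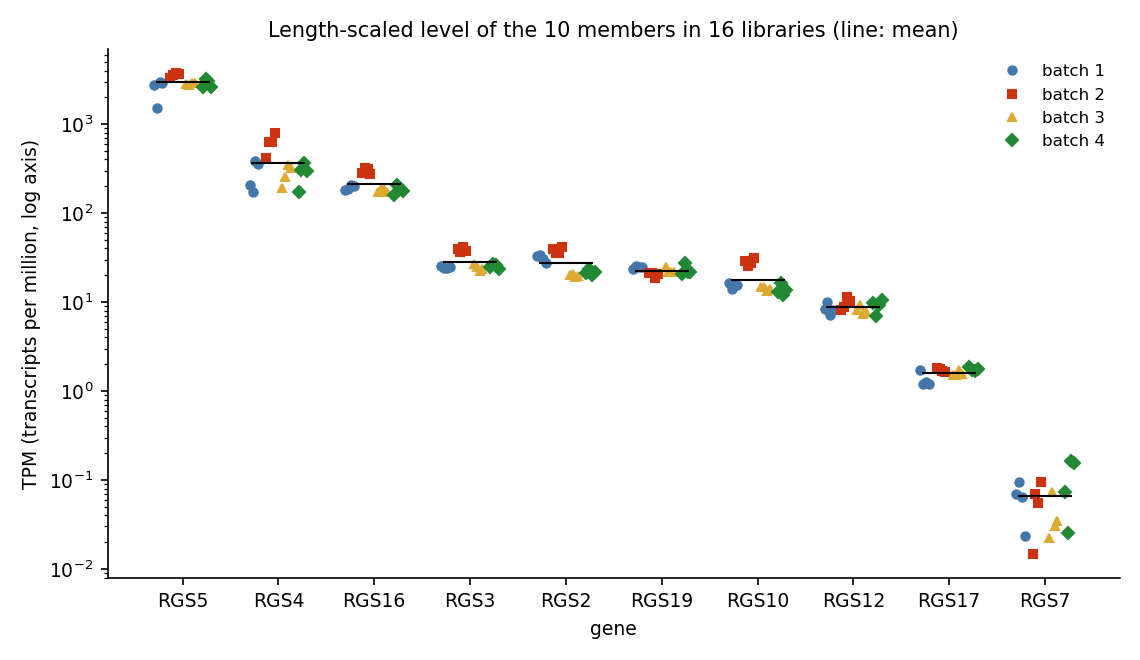
TPM of the 10 members on a log axis, with 1 point for each of 16 libraries, coloured by batch, and a black line at the mean. RGS5 lies between 1503 and 3723 TPM, RGS4 and RGS16 form the next step, and RGS7 stays below 0.163 TPM.

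The remaining members formed a low and partly shared range. RGS3 had 22.6 to 42.0 TPM, RGS2 19.4 to 41.5 TPM, RGS19 18.6 to 27.8 TPM and RGS10 12.1 to 31.6 TPM. These 4 ranges overlapped, and neighbours in the order RGS3, RGS2, RGS19, RGS10 were higher in 11, 10 and 12 of 16 libraries. RGS12, a large multidomain protein, had 6.88 to 11.3 TPM, and RGS17 had 1.19 to 1.86 TPM, each below the gene before it in 16 of 16 libraries. RGS7 had 1 to 13 counts per library. Of the 11 other RGS genes looked up, RGS1, RGS18 and RGS21 were at 0 counts in all libraries, which allows up to 3 counts in each, and RGS6 and RGS22 had at most 4 counts. RGS8, RGS9, RGS11, RGS13, RGS14 and RGS20 passed the filter.

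In CPM, RGS4 was higher in every construct library than in the WT library of its batch. RGS4 in WT had 305, 585, 268 and 261 CPM in batches 1 to 4. In FL it had 378, 885, 393 and 426 CPM in the same order. In NCTAD it had 706, 884, 539 and 543 CPM. In cIDR the 4 values were 627, 1126, 511 and 484 CPM. The batch 2 library was the highest of each group, and the WT library of batch 2, at 585 CPM, was above 3 of 4 FL libraries, 2 of 4 NCTAD libraries and 2 of 4 cIDR libraries, so no construct group was free of overlap with WT.

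Within batches, the log2 difference of RGS4 from WT averaged 0.54 ± 0.17 in FL, 0.97 ± 0.26 in NCTAD and 0.95 ± 0.06 in cIDR (SD, n = 4 batches), that is 1.46-fold, 1.96-fold and 1.93-fold. The 12 differences ranged from 0.31, in FL of batch 1, to 1.21, in NCTAD of batch 1. The cIDR differences were the most even, from 0.89 to 1.04, and batch 2 gave the lowest NCTAD difference, 0.60. The 3 comparisons share the 4 WT libraries, and an exact sign-flip test over 4 batches cannot reach the threshold of 0.05.

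**Figure D2:**
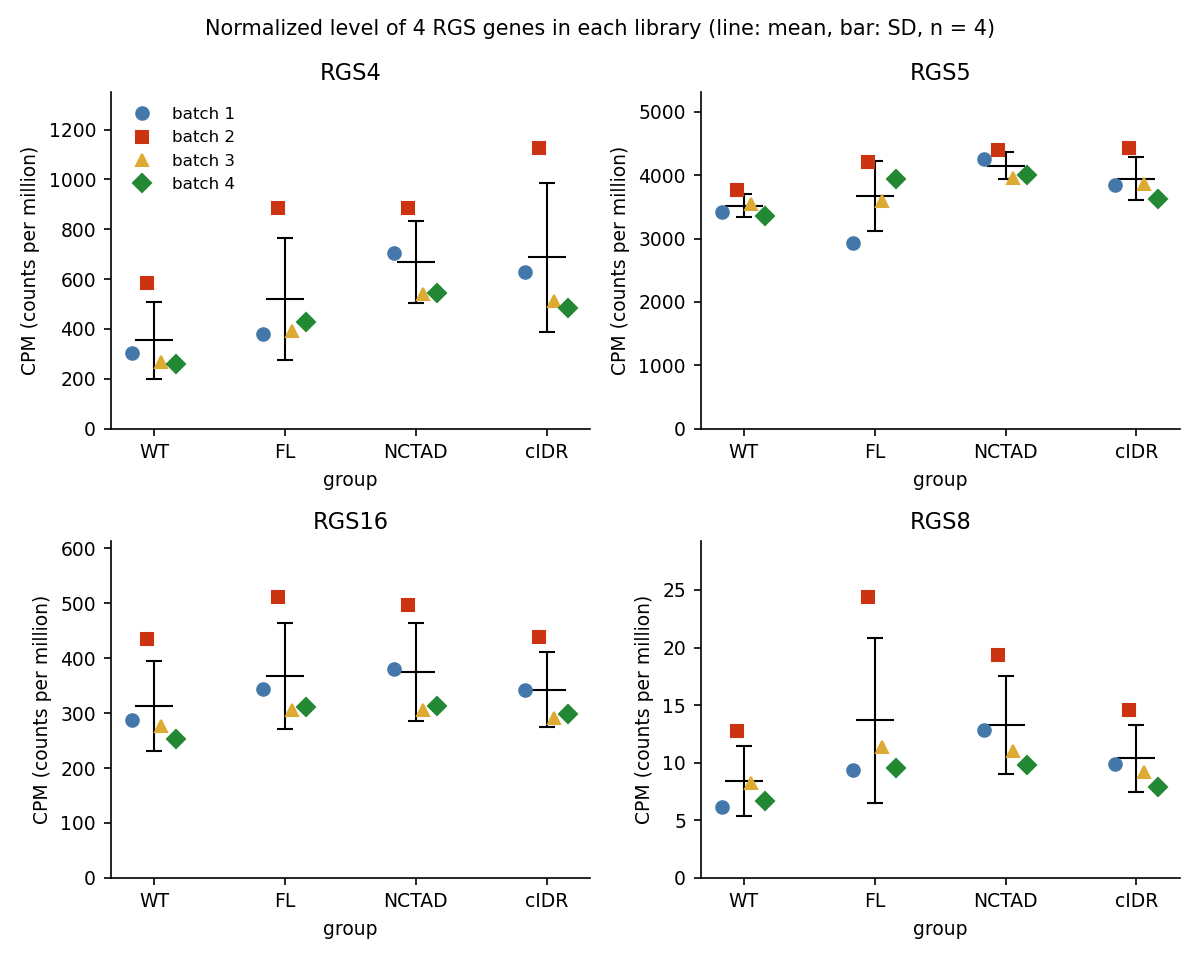
CPM of RGS4, RGS5, RGS16 and RGS8 in each library, by group, with points coloured by batch, the line at the mean and the bar 1 SD (n = 4). Batch 2 is the highest library of each group in all 4 panels, and RGS4 in WT lies between 261 and 585 CPM against 484 to 1126 CPM in cIDR.

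Calls were made where the Benjamini-Hochberg adjusted p of edgeR's quasi-likelihood test was under 0.05, and without the batch in the model RGS4 was not called. Its log2 fold change was then 0.55 ± 0.34 (SE) in FL and 0.91 ± 0.34 in NCTAD, with an edgeR adjusted p of 1 in both. With the batch in the model as a replicate block, RGS4 rose by 0.98 ± 0.10 in NCTAD (edgeR adjusted p = 0.000291), and in FL the value was 0.55 ± 0.10 (edgeR adjusted p = 0.0665). Both comparisons reuse the 4 WT libraries of the contrast that chose RGS4, so these p-values are not independent of the choice. The cIDR value that chose the gene was 0.95 ± 0.34 without the block and 0.95 ± 0.10 with it. The NCTAD value stayed past the threshold with the block in 8 of 8 fits that left out 1 library, at 0.87 to 1.10, while FL passed only without its batch 1 library (adjusted p = 0.00813).

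Counting all 9 tested members, the fit without the block called 0 in FL, 0 in NCTAD and 0 in cIDR against WT, where it called 0.0102%, 0.0256% and 0.0102% of tested genes. At an unadjusted p under 0.05 it held 0 members in FL, 2 (RGS4 and RGS5) in NCTAD and 1, RGS4, in cIDR, beside 1.14%, 1.42% and 1.37% of tested genes, and DESeq2 without the block also called 0 in each. With the block, edgeR called 0 members in FL, 2 in NCTAD (RGS4 and RGS16) and 1 in cIDR (RGS4), beside 0.102%, 0.456% and 0.486% of tested genes. The cIDR count is the gene that this contrast chose, and nothing is read from it. At an unadjusted p under 0.05 the blocked fit held RGS4 and RGS16 in FL, and RGS4, RGS5 and RGS16 in NCTAD and in cIDR, beside 5.11%, 5.96% and 5.45% of tested genes. With the block, the 9 members had median log2 fold changes of 0.05, 0.05 and 0.04 for FL, NCTAD and cIDR, against 0.01, 0.02 and 0.01 over all tested genes. Leaving out batch 2, where RGS4 was highest, brought RGS4 past the threshold without the block in NCTAD (1.08, edgeR adjusted p = 0.00118).

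RGS16, a relative of RGS4 also found in lymphocytes, showed smaller differences. RGS16 in WT had 287, 434, 277 and 254 CPM in batches 1 to 4. FL had 343, 511, 306 and 311 CPM, and NCTAD had 381, 498, 306 and 314 CPM. In cIDR the values were 341, 439, 291 and 299 CPM. In CPM each construct library was above the WT library of its batch, while the groups overlapped because batch 2 was high in all of them.

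The within-batch log2 difference of RGS16 averaged 0.23 ± 0.06 in FL, 0.26 ± 0.12 in NCTAD and 0.14 ± 0.12 in cIDR (SD, n = 4 batches), with a lowest single value of 0.02 in cIDR of batch 2. With the block, RGS16 rose by 0.26 ± 0.05 (SE) in NCTAD (edgeR adjusted p = 0.0325), and the values of 0.23 ± 0.05 in FL and 0.14 ± 0.05 in cIDR were not called by edgeR (adjusted p = 0.162 and 0.65), although DESeq2 with the block called RGS16 in FL (0.22, adjusted p = 0.0066). Without the block the NCTAD value was 0.26 with an edgeR adjusted p of 1, and with the block but batch 2 left out it was 0.27 (edgeR adjusted p = 0.144). The NCTAD call was kept in only 1 of 8 fits that left out a library, that without the batch 3 library of WT; without the others the adjusted p reached 0.173.

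RGS5 differed little for its high level. RGS5 in WT had 3416, 3759, 3547 and 3362 CPM in batches 1 to 4, and in FL 2925, 4201, 3590 and 3947 CPM. NCTAD had 4256, 4391, 3961 and 3999 CPM, all above the 4 WT libraries. In cIDR the values were 3848, 4427, 3868 and 3628 CPM, of which only the batch 4 library was below the highest WT library. Groups free of overlap between NCTAD and WT, in either direction, occurred in 1.43% of tested genes. The mean within-batch difference was 0.24 ± 0.06 in NCTAD, 0.16 ± 0.06 in cIDR and 0.05 ± 0.20 in FL (SD, n = 4 batches), and no fit called RGS5 (with the block, edgeR adjusted p = 0.431 in NCTAD, 0.915 in cIDR and 0.942 in FL).

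The sign of a within-batch difference from WT depended on the unit in 22 of 108 cases, counting 9 members, 3 constructs and 4 batches. For RGS4 it turned in 1 case, the FL library of batch 1, with 172 TPM against 208 TPM in WT but 378 against 305 CPM. RGS16 in cIDR was above WT in CPM but below it in TPM in batches 2 (271 against 279 TPM) and 3 (173 against 174 TPM). RGS5 turned in cIDR of batch 4 (2607 against 2635 TPM) and in FL of batch 3 (2739 against 2818 TPM). In FL of batch 1 RGS5 was below WT in both units, with 1503 against 2730 TPM. The cause was not tested.

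In CPM, pairs of a member and a construct with 1 direction in 4 of 4 batches numbered 8 of 27: RGS4 in 3 constructs, RGS16 in 3, and RGS5 in NCTAD and cIDR, all higher than WT. Among all tested genes 14.1% of such pairs had 1 direction, and the RGS4 pair in cIDR belongs to the contrast that chose the gene. None of the other 6 members had 1 direction in a construct in CPM. In TPM the number was also 8 of 27, beside 16.9% over all tested genes, but only 5 pairs were shared: RGS4 in FL, RGS16 in cIDR and RGS5 in cIDR were mixed, while RGS2 and RGS10 in NCTAD and RGS3 in cIDR were lower than WT in 4 of 4 batches. The fitted log2 fold changes of the 6 members other than RGS4, RGS5 and RGS16 with the block lay from -0.12 to 0.06 in FL, -0.04 to 0.09 in NCTAD and -0.09 to 0.05 in cIDR, and none was called or had an unadjusted p under 0.05.

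RGS2, the Gq-directed member, had 27.4, 31.6, 16.6 and 17.3 CPM in WT in batches 1 to 4 and 24.3, 34.6, 17.5 and 18.7 CPM in cIDR. FL and NCTAD lay within 16.6 to 31.7 CPM, and batches 1 and 2 were the higher ones in every group. RGS3 had 36.6 to 59.7 CPM, RGS12 had 17.8 to 25.3 CPM, RGS17 had 7.12 to 10.5 CPM, RGS19 had 16.6 to 25.8 CPM and RGS10 had 6.73 to 16.4 CPM, with overlapping ranges in all 4 groups. The largest mean within-batch difference from WT among these 6 members was that of RGS17 in FL, -0.12 ± 0.18 (SD, n = 4 batches).

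RGS8, a neuronal relative in the R4 subfamily that is no member of the list of 10, lies 37428 bases beyond RGS16 on chromosome 1, counted to its nearer end. RGS8 in WT had 6.12, 12.7, 8.20 and 6.63 CPM, and in FL 9.37, 24.4, 11.4 and 9.56 CPM, in batches 1 to 4. NCTAD had 12.8, 19.3, 11 and 9.81 CPM and cIDR 9.88, 14.6, 9.17 and 7.90 CPM. It was higher than WT in 4 of 4 batches in each construct, by 0.64 ± 0.21, 0.66 ± 0.28 and 0.32 ± 0.25 on the log2 scale (SD, n = 4 batches). With the block RGS8 rose in NCTAD (0.66 ± 0.12, SE, edgeR adjusted p = 0.0178), a call that 3 of 8 fits without 1 library kept. Without the block RGS8 was not called there (0.65, edgeR adjusted p = 1). Of the 6 other RGS genes tested it was the only one called in any comparison, and 0.456% of tested genes were called in NCTAD with the block. RGS13 was lower than WT in 4 of 4 batches in FL and NCTAD (-0.18 ± 0.13 and -0.31 ± 0.20), and RGS14 was higher in both (0.22 ± 0.20 and 0.22 ± 0.19), with no call. RGS9 was higher in 4 of 4 batches in NCTAD (0.33 ± 0.18) and RGS11 in cIDR (0.34 ± 0.33), also with no call. Over all tested genes, 14.1% of pairs of gene and construct had 1 direction in 4 of 4 batches.

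Between the constructs, RGS4 was lowest in FL. NCTAD was above FL in 3 of 4 batches, with log2 differences of 0.90, 0.46 and 0.35 in batches 1, 3 and 4 and -0.001 in batch 2, and cIDR was above FL in 4 of 4, as were 4.87% of tested genes, by 0.73, 0.35, 0.38 and 0.18. No member was called between constructs, with or without the block. Over all tested genes edgeR with the block called 0% in NCTAD against FL, 0.0307% in cIDR against FL and 0.00512% between cIDR and NCTAD, and without the block 0% in each. With the block RGS4 was 0.43 ± 0.10 (SE) higher in NCTAD than in FL (edgeR adjusted p = 0.996) and 0.40 ± 0.10 higher in cIDR than in FL. The cIDR libraries are part of what chose RGS4, so its values in cIDR against FL and against NCTAD are a description. Without the NCTAD library of batch 2, RGS4 in NCTAD against FL was called with the block (edgeR adjusted p = 0.0487). At an unadjusted p under 0.05 the blocked fit held RGS4 and RGS5 in NCTAD against FL, 1 member, RGS4, in cIDR against FL, and 1, RGS16, in cIDR against NCTAD, beside 3.69%, 3.68% and 2.15% of tested genes; the fit without the block held 0 in each, and DESeq2 with or without the block called 0. cIDR and NCTAD differed by -0.03 ± 0.10 with the block and 0.04 ± 0.34 without it. RGS16 was lower in cIDR than in NCTAD in 4 of 4 batches, by -0.07 to -0.18, as were 6.03% of tested genes, and lower in cIDR than in FL in 4 of 4, by -0.01 to -0.22, as were 5.00%, both without a call. RGS3 and RGS12 were also lower in cIDR than in NCTAD in 4 of 4. Against FL, NCTAD had RGS5 higher and RGS2 and RGS19 lower in 4 of 4, beside 1175 higher and 1015 lower of 19530 tested genes. EPAS1 was itself higher in cIDR than in FL and in NCTAD in 4 of 4 batches, and its part here was not tested.

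Batch 2 stood apart from batches 1, 3 and 4, and several members moved with it in all 4 groups. It is a single batch, and its differences are described here and were not tested. For RGS4 the log2 CPM of batch 2 exceeded the mean of the other batches by 1.08, 1.15, 0.58 and 1.07 in WT, FL, NCTAD and cIDR cells. RGS4 libraries of batch 2 had 585 to 1126 CPM and those of the other batches 261 to 706 CPM, so the 2 sets overlapped in CPM. They did not overlap in TPM, with 414 to 790 TPM in batch 2 and 171 to 381 TPM in the other batches. The batch 2 difference in WT cells, 1.08, stands beside a mean within-batch difference of 0.97 between NCTAD and WT.

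RGS10 was higher in batch 2 by 0.94, 0.74, 0.90 and 1.09 in WT, FL, NCTAD and cIDR, with 13.0 to 16.4 CPM against 6.73 to 9.31 CPM. RGS16 had 434 to 511 CPM in batch 2 against 254 to 381 CPM, and RGS3, which has long and short forms, had 54.0 to 59.7 CPM against 36.6 to 41.4 CPM. All 4 batch 2 libraries of these 3 genes were above the other 12 libraries. RGS19, first described as a partner of Gαi, went the other way, with 16.6 to 18.3 CPM against 18.6 to 25.8 CPM. RGS5, RGS12 and RGS17 had mean batch 2 differences of 0.19, -0.02 and 0.09.

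Batch 2 libraries were thus above the other 12 in CPM for 3 of 9 members and below them for 1, beside 14.4% and 14.6% of tested genes, and 29.0% in either direction. By TPM, RGS2, RGS4 and RGS5 were above as well, while RGS19 overlapped (18.6 to 21.3 TPM against 20.9 to 27.8 TPM). The share of all tested genes in TPM is not given here. Batch 2 was the highest library of each of the 4 groups for 5 of 9 members (RGS3, RGS4, RGS5, RGS10 and RGS16), which 19.1% of tested genes also showed. Among the 6 other RGS genes tested, 4 were above: RGS9 (8.19 to 10.2 against 3.03 to 5.27 CPM), RGS11, RGS13 and RGS14. RGS2 grouped differently, since its 8 libraries of batches 1 and 2 were above the 8 of batches 3 and 4, as for RGS10 and 2.03% of tested genes. RGS12 and RGS19 were highest in the 4 libraries of batch 1, as were 1.99% of tested genes.

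Genes of the hypoxia list moved with batch 2 as well. The 12 hypoxia genes summed to 860 to 1450 CPM in batch 2 and 320 to 596 CPM in the others, and for 9 of 12 the 4 batch 2 libraries were above the other 12, as for 14.4% of tested genes. VEGFA, an angiogenic factor, had 312 to 513 CPM in batch 2 against 93.1 to 258 CPM. EPAS1 was higher in batch 2 in WT cells, with 28.1 CPM against 13.0 to 17.3 CPM. Among construct libraries batch 2 had 2001 CPM in FL, 1320 CPM in NCTAD and 2189 CPM in cIDR, the lowest library of the last 2 groups. Markers of other cell types summed to 27.1 to 27.9 CPM in batch 2 against 13.9 to 17.6 CPM, of which DCN was the largest, with KRT5 at 0 and SOX10 and PTPRC at or near 0. The neuroblastoma markers summed to 6172 to 6965 CPM in batch 2 against 6686 to 8086 CPM, and they moved both ways: 2 of 10, TH and CHGB, were above the other 12 libraries, 4 were below, beside 14.4% and 14.6% of tested genes, and the median difference was 0.15. The part of these shifts in the RGS values was not tested, and the culture oxygen of each batch is given as the same.

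Few genes of the other G protein lists passed the test. Without the block, edgeR called 0 genes of any list against WT, the hypoxia list and both marker lists included, and 0 to 3 genes in each list had an unadjusted p below 0.05. With the block, edgeR called 0 of the genes tested in any list in FL against WT, and at an unadjusted p under 0.05 this fit held 1 of 11 Gα subunits, 1 of 5 RGS partners, 2 of 6 other RGS genes and 4 of 10 neuroblastoma markers. At the same p it held 6, 9 and 6 of 19 receptors in FL, NCTAD and cIDR, beside 5.11%, 5.96% and 5.45% of tested genes. In NCTAD against WT, where 0.456% of tested genes were called, 1 of 11 Gα subunits rose, GNAS (0.29 ± 0.06, SE, edgeR adjusted p = 0.0359), which encodes the stimulatory Gs subunit. Of 19 receptors for ligands that couple to Gi or Gq, 1 rose in NCTAD, the chemokine receptor CXCR4 (2.10 ± 0.32, edgeR adjusted p = 0.00483). None of the 13 Gβ and Gγ subunits, 13 effectors, 12 other regulators such as the receptor kinases and arrestins, 5 RGS partners or 10 N-degron genes tested was called in FL, NCTAD or cIDR against WT, and each of these lists held 0 to 2 genes at an unadjusted p under 0.05. The median log2 fold changes of these lists with the block lay from -0.07 for the receptors in NCTAD to 0.12 for the RGS partners in cIDR.

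The following were named for the size of their cIDR difference, none of them called, and 14.1% of pairs over all tested genes had 1 direction in 4 of 4 batches. GNB5, the Gβ partner of the R7 subfamily, was higher than WT in 4 of 4 batches in cIDR and FL, by 0.19 ± 0.15 and 0.21 ± 0.19 (SD, n = 4 batches). ADCY5, an adenylyl cyclase, was lower in 4 of 4 batches in each construct, by -0.23 ± 0.17, -0.25 ± 0.19 and -0.26 ± 0.16 in FL, NCTAD and cIDR. ARRB1, an arrestin, differed by -0.11 ± 0.06 in cIDR, and GRK3, a receptor kinase, by -0.11 ± 0.07. UBR1, an N-recognin that binds arginine N-degrons, was higher in cIDR in 4 of 4 batches, by 0.13 ± 0.02, and NTAN1, an amidase of the same pathway, was lower by -0.09 ± 0.09. S1PR3, a receptor for sphingosine 1-phosphate, differed by -0.27 ± 0.21, GNAI2 by 0.13 ± 0.16, PLCB2 by 0.25 ± 0.27, GNG3 by 0.33 ± 0.16, GNB3 by 0.18 ± 0.24 and GPR158, a membrane anchor of RGS7, by -0.07 ± 0.18.

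In the hypoxia list, 0 of 12 genes were called without the block. With the block, 6 of 12 genes rose in NCTAD and 7 of 12 in cIDR, beside 0.456% and 0.486% of tested genes called. None was called in FL, where 7 of 12 had an unadjusted p under 0.05, as did 5.11% of tested genes. NDRG1 was 1.81 ± 0.59, 2.26 ± 1.14 and 2.72 ± 1.12 above WT in FL, NCTAD and cIDR, and ADM, encoding adrenomedullin, was 0.89 ± 0.71, 1.32 ± 0.41 and 1.45 ± 0.44 above it (SD, n = 4 batches). TH and DBH, enzymes of catecholamine synthesis, were the 2 of 10 neuroblastoma markers called, in NCTAD (1.27 ± 0.17 and 0.61 ± 0.07, SE, edgeR adjusted p = 0.0022 and 0.00035) and in cIDR. Among 6 tested markers of other cell types 0 were called, 1 had an unadjusted p under 0.05 in each construct, and COL1A1 and S100B differed by 0.29 ± 0.33 and 0.20 ± 0.27 in cIDR (SD, n = 4 batches).

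Over the 12 within-batch differences from WT, the genes nearest to RGS4 among 12373 candidates were AQP10, VEGFA, SMIM3, RTL1 and STC1. Nearness was the mean absolute distance between a gene's 12 differences and those of RGS4, which was 0.117 for AQP10, an aquaglyceroporin, 0.147 for VEGFA, 0.160 for SMIM3, 0.166 for RTL1, an imprinted gene, and 0.176 for STC1, a secreted glycoprotein. The median distance over candidates was 0.809. Among relatives RGS8 was at rank 34 (0.388) and RGS16 at rank 211 (0.608). VEGFA differed from WT by 0.46, 1.04 and 0.89 in FL, NCTAD and cIDR, beside 0.54, 0.97 and 0.95 for RGS4. The 12 differences of a gene share 4 WT libraries, and RGS4 was chosen for this pattern, so the list is a description of these libraries.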

How the data were processed

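Poly(A)-selected RNA of 16 libraries, 4 groups in 4 batches, was made into stranded libraries from about 250 ng with 13 PCR cycles, per the labels' protocols. The authors deposited estimated counts per gene, unscaled and 15.5% of them not whole, and TPM values from Salmon, per the table names; fastp, STAR, Salmon, featureCounts and the build GRCh38 appear in the submitters' processing notes, and versions, annotation release and the strand setting are not given in the sources used here. Without the strand setting, reads of RGS5 and its antisense RGS5-AS1 (7 to 36 counts) cannot be told apart, and the pseudogene RGS17P1 (0 to 5 counts) may share reads with RGS17.

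Counts were rounded and filtered with filterByExpr (19530 genes left). Groups were compared with edgeR 4.0.16 in R 4.3.3: quasi-likelihood test, TMM, group as the only term over all 16 libraries, and calls at a Benjamini-Hochberg adjusted p under 0.05 over all tested genes and within each of 6 comparisons. The biological coefficient of variation was 0.245, and 0.108 with the batch as a replicate block. The labels give the batch, and libraries of 1 batch deviated together from their group means (r across genes averaging 0.308, from 0.0674 to 0.712, and -0.0945 across batches), so the block pairs the samples. Subtracting group means by itself pushes the value across batches below 0 when that within batches is above 0, so it adds no separate evidence. No library was a copy of another of its group. Log2 CPM used a prior count of 2, within-batch differences subtract the WT library of the same batch, and the SE of a fold change is the fold change over the root of F. The script was tested on simulated data. Alternatives were other size factors, DESeq2 1.42.0, limma 3.58.1 on log2(TPM + 1) and log2(TPM + 0.1), other filters, only the 8 libraries compared, a prior count of 0.5, batch 2 left out and each library left out. DESeq2 with the block and leaving out libraries within the block were added after seeing the data.

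The members, gene lists and alternatives were chosen with earlier results of these data known. Named genes were the 10 members, the other RGS genes tested, EPAS1, in each further list (RGS partners, Gα, Gβ and Gγ, effectors, other regulators, N-degron pathway, receptors, neuroblastoma, other cell types, hypoxia) the genes called and, above a floor of 1 for the average log2 CPM, the 2 with the largest cIDR difference, and the 5 genes nearest to RGS4. Promoter windows, 250 bases before to 50 after a start, came from RefSeq (GRCh38.p14), where all 10 members matched. Figures used matplotlib 3.10.9 (Python 3.11.15).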

Additional observations from a re-analysis of the deposited data

Results flagged for a closer look

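In groups of 4 libraries, the highest or lowest library was marked where its gap to the nearest of the others took an unusually large share of the group's range, by Dixon's 95% critical value. Of 36 groups examined (9 members in 4 groups) 5 were marked, and chance marks about 1 in 20 of independent groups. These 36 groups share libraries and batches and are not independent, so nothing is read from that comparison. All 5 were the highest library and came from batch 2. RGS4 stood at 585 CPM in WT, where the other 3 libraries had 261 to 305 CPM, and at 885 CPM in FL, where they had 378 to 426 CPM. RGS3 stood at 57.3 CPM in WT against 37.3 to 38.9 CPM, and at 54.0 CPM in FL against 37.0 to 38.7 CPM. RGS10 stood at 16.4 CPM in cIDR against 7.41 to 8.07 CPM.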

How the results depend on the processing

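The count of members called was 0 in each of the 6 comparisons without the block, and stayed 0 under other size factors, other filters, only the 8 libraries compared, DESeq2 and limma on TPM. With the replicate block the counts for FL, NCTAD and cIDR against WT were 0, 2 and 1; DESeq2 with the block called 1 (RGS16), 2 and 1. With batch 2 left out, with or without the block, they were 0, 1 and 1, RGS4 each time. Without 1 library and without the block the count was 0 in every fit; with the block it ranged from 0 to 1 for FL, from 1 to 2 for NCTAD and from 1 to 1 for cIDR against WT, and from 0 to 1 for NCTAD against FL. The block changed no other call of a member. The cIDR counts against WT come from the contrast that chose RGS4, so nothing is read from them. Shares of all tested genes called are given above only for edgeR on all libraries, with and without the block. RGS4 in cIDR against NCTAD, 0.04 without the block and never called, turned negative with the block (-0.0266), with batch 2 left out (-0.136, or -0.135 with the block), in limma on log2(TPM + 1) (-0.0405) and log2(TPM + 0.1) (-0.0407), and in DESeq2 with the block (-0.0286). Without 1 library it ranged from -0.31 to 0.20; with the block it was -0.147, -0.0144 and -0.0121 without NCTAD replicates 2, 3 and 4, and -0.0535, -0.0566 and -0.0158 without cIDR replicates 1, 2 and 3, but 0.0754 without NCTAD replicate 1 and 0.0190 without cIDR replicate 4. The cause was not tested. The 8 pairs of member and construct with 1 direction in all batches numbered 8 to 11 without 1 library, 9 without batch 2 and 8 in TPM, of which 5 were the same pairs. With a library or batch left out, fewer batches have to share a direction, which is easier to meet. The share of all tested genes is given only for 4 of 4 batches, so the counts of 9 and up to 11 have no share beside them. The 4 members whose batch 2 libraries did not overlap the others numbered 4 to 5 without 1 library and 6 in TPM. The TPM set was a different one, since RGS2, RGS4 and RGS5 entered and RGS19 dropped out. Shares of all tested genes under these settings are not given, so nothing is read from these counts. The 9 tested members had at least 263 counts in every library, so depth limits mainly RGS7.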
